A study of Mus musculus with 6 samples.

Results

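The wild-type dorsal pancreas of the mouse embryo at E13.5, in days of embryonic development, is described here from 3 RNA-seq libraries, WT 1, WT 2 and WT 3, out of 6 libraries in the study. They were chosen by their label alone, and the other 3 libraries, which come from pancreas without Bicaudal C1 (Bicc1), were not used. The embryos had a mixed C57BL/6 and ICR background and no treatment is named in the labels. The labels do not say whether a library holds 1 pancreas or a pool, or whether the 3 come from separate litters, so the spread among them may be partly technical. Values for a gene are given in the order WT 1, WT 2 and WT 3 throughout.

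The dorsal bud of the pancreas grows from foregut endoderm into surrounding mesenchyme and forms a branching epithelium. At this stage the epithelium is being divided into tips, whose cells turn towards the acinar fate and make digestive enzymes, and a trunk, whose cells become duct or, through a pulse of the transcription factor Neurog3, hormone-producing islet cells. The mesenchyme supplies growth factors, retinoic acid and matrix, and vessels, nerves and mesothelium accompany the bud. Bulk RNA holds all of these, so fewer cells of a type and less RNA per cell cannot be told apart.

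The deposited value of a gene is a density of reads over its length, with a lowest value of 0.01. A gene is called present when its value was 1 or more in all 3 libraries, at the floor when it was 0.01 in all 3, and variable when it reached 1 in at least 1 library and its highest and lowest libraries differed by 2-fold or more on the log2(value + 1) scale, which understates the fold of low genes. In short genes with a single exon a value of 1 in a gene of 1 kb equalled 154 reads in WT 1, 117 in WT 2 and 164 in WT 3, and the floor in such a gene equalled 1.54, 1.17 and 1.64 reads. WT 2 was therefore the shallowest library.

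Of 24389 genes, 13382 were present (54.9%), 10226 were below 1 in all 3 libraries (41.9%), 781 were at 1 or more in some libraries only, and 393 were at the floor (1.61%). Of the 14163 genes that reached 1 in at least 1 library, 198 were variable (1.4%). Pearson's r of the log2 values across present genes, which are not independent replicates, was 0.996 between WT 1 and WT 2, 0.991 between WT 1 and WT 3, and 0.988 between WT 2 and WT 3. The count of variable genes rested on WT 3: without it 27 genes were variable, against 113 without WT 2 and 159 without WT 1.

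Levels of different genes are not read as relative amounts here, because the value of some genes may rest on a short stretch of the gene. The decimals of a value show over how many bases it was averaged, up to a whole multiple, and for 204 of 9342 genes with several exons for which a length was found this was under 100 bases. In 80 of the 204 the values had 2 decimals at most, which show no length. Vamp2, a synaptic vesicle protein of the granule list, was read over 14 of 3809 annotated bases or a multiple of 14, and its values were 3296, 3558 and 2919. Each gene is therefore compared only with itself between libraries.

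Genes were read in 32 lists that hold 924 distinct genes. Of these 616 were present (66.7%, against 54.9% of all genes), 269 were below 1 in all 3 libraries and 9 were at the floor. The 54.9% is the share against which each list's count is to be read. The lists differed widely in how many of their genes were present. All 25 housekeeping genes were, as were 13 of 14 mesothelial genes, 25 of 27 cell cycle genes, 23 of 26 endothelial genes and 27 of 31 epithelial junction genes. At the other end stood 10 of 25 digestive enzymes, 8 of 20 liver genes, 2 of 19 stomach and intestine genes, and 0 of 25 genes of lung, kidney, gonad and muscle.

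**Figure D1:**
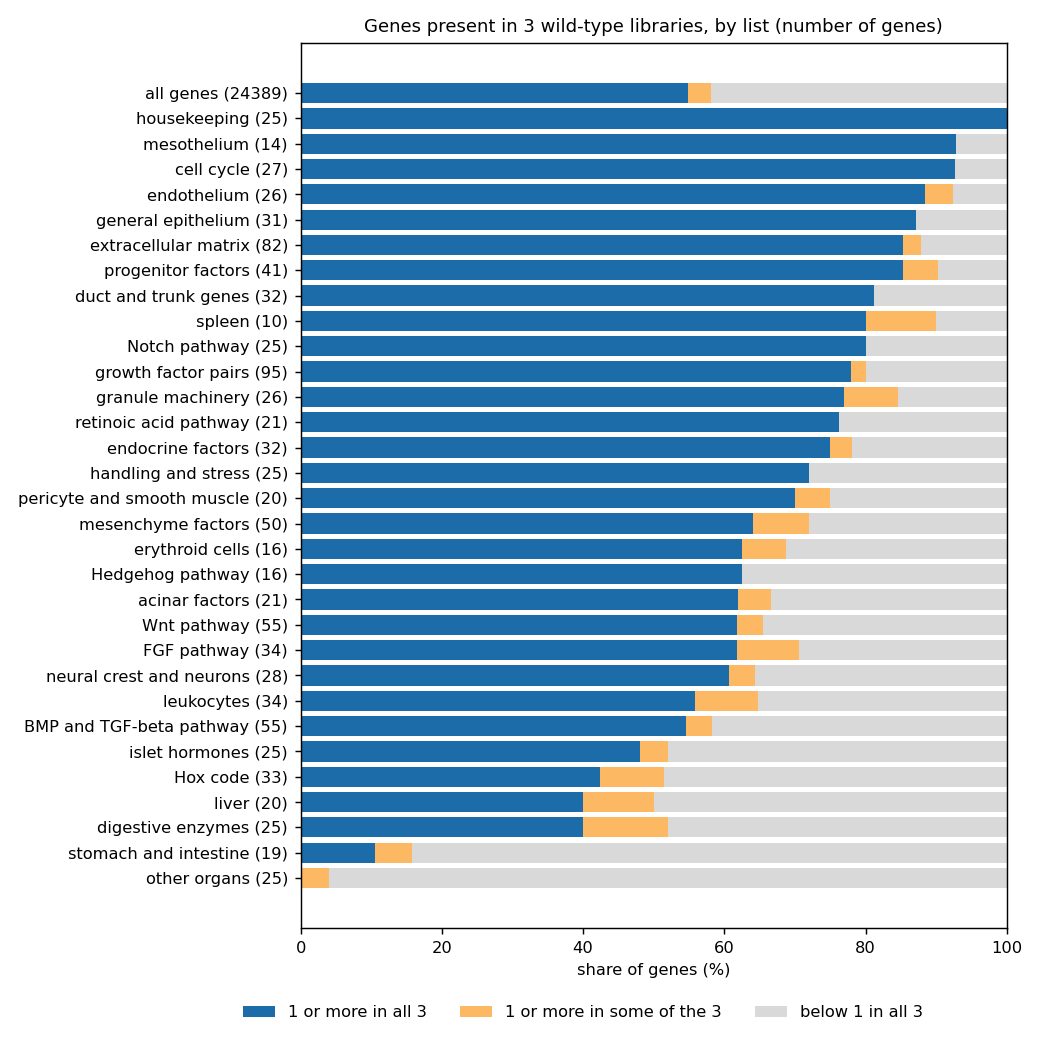
Share of each gene list (percent of its genes, with the number of genes in brackets) that was at 1 or more in all 3 wild-type libraries (blue), in some of them (orange) or below 1 in all 3 (grey). The sex-linked list is left out, the top bar is all 24389 genes, with 54.9% at 1 or more in all 3, and the lowest bars are genes of stomach and intestine and of other organs.

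Transcription factors of the multipotent progenitor and tip were nearly all present, 35 of 41 (85.4%), and none was variable. Their median coefficient of variation was 8.92%. Pdx1, which marks the whole pancreatic epithelium, had values of 11.3, 12.04 and 12.5. Ptf1a, the bHLH factor that marks multipotent progenitors and then acinar cells, was at 5.94, 5.07 and 4.04, with WT 1 highest and WT 3 lowest. Sox9, which keeps progenitors in the epithelium, was at 57.4, 60.2 and 54.8, and its libraries differed by little. Homeobox factors mark the trunk and the early bud. Nkx6-1 was at 5.31, 5.88 and 7.18 and Nkx2-2 at 23.8, 20.1 and 25.1. Mnx1, needed for the dorsal bud to form, sat on the threshold at 1.02, 0.957 and 1.1 and so was not counted as present.

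Factors of foregut endoderm that act upstream of these genes were present as well. Foxa2, which opens chromatin in endoderm, was at 13.8, 12.9 and 11.7, whereas Foxa1, its close relative, was below 1 at 0.163, 0.0856 and 0.197. Gata4 was at 19.7, 16.96 and 17.8 and Gata6 at 13.1, 13.4 and 12.7; both zinc finger factors are needed for the pancreas to form. Onecut1, which acts before Neurog3 and in ducts, was at 18.9, 27.8 and 21.4, with WT 2 highest. Of the other genes of the list, Sox4 was at 387, 422 and 402, Id2 at 54.1, 54.9 and 50.4, the Hippo effector Yap1 at 51.8, 51.5 and 48.1 and Myc at 51.7, 50.6 and 50.2. Id3, an inhibitor of bHLH factors, spread further, at 4.28, 4.1 and 7.08 with WT 3 highest. Rbpjl, the partner of Ptf1a in acinar cells that replaces Rbpj, was mixed at 1.31, 0.803 and 0.921, while Rbpj itself was present at 19.3, 22.4 and 18.7.

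Transcription factors of the endocrine lineage were present in 24 of 32 cases (75%), and none was variable. Neurog3, the factor that commits a progenitor to the islet lineage, was at 66.4, 55.4 and 58.3. Neurod1, its target, was at 22.9, 18.2 and 18.3, and Insm1, a zinc finger factor of endocrine differentiation, was at 14.4, 11.9 and 12.6. WT 1 was highest for each of these 3 genes and WT 2 lowest. Pax4, a factor of beta and delta cells, was present at 2.41, 1.5 and 2.1. The pan-endocrine factors Pax6, Isl1 and Rfx6 were at 2.22, 2.13 and 1.97 for Pax6, 10.1, 10.3 and 9.14 for Isl1 and 2.57, 2.39 and 1.94 for Rfx6, and WT 3 was lowest for these 3. Isl1 is made in mesenchyme as well as in islet cells.

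WT 1 was the highest library for 15 of the 24 present endocrine factors, against 30.2% of all present genes, and WT 3 for 1 of 24, against 34.9%. The median deviation of WT 1 from the mean of the 3 libraries over these 24 genes was 0.083 on the log2(value + 1) scale, against 0.0051 over all present genes. The genes of this list with the highest medians outside its core are not restricted to the islet lineage. Peg3, an imprinted zinc finger gene, was at 268, 316 and 245, Bnc2, a zinc finger factor made in mesenchyme, at 72.3, 112 and 71.6, Hhex, a factor of foregut and delta cells, at 35.2, 31.04 and 29.03, and Runx1t1, a corepressor, at 15.2, 18.1 and 13.46.

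Of the islet hormones, glucagon, both insulins and ghrelin were present while somatostatin and pancreatic polypeptide were below 1. Gcg, which encodes glucagon, was at 229, 199.7 and 145, highest in WT 1 and lowest in WT 3. Sst was at 0.133, 0.199 and 0.121 and Ppy at 0.0783, 0.0324 and 0.01. For Ppy the values of WT 1 and WT 2 correspond to about 6 and 2 reads over its 500 bases, and WT 3 was at the lowest value of 0.01. The order of Ppy among libraries is therefore not readable at this depth. Insulin was present: Ins1 was at 2.67, 1.37 and 2.58 and Ins2 at 10.1, 3.72 and 6.85. Ins2 was the only variable hormone of 13 that reached 1, and WT 2 was lowest for both insulin genes. The call for Ins2 was lost without WT 1 or without WT 2. Reads of Ins1 and Ins2 can be shared, since the genes are near copies, so the split between them is uncertain.

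Other hormones of early endocrine cells were present. Iapp, the amyloid peptide co-released with insulin, was at 12.5, 5.76 and 10.1, and like the insulin genes was lowest in WT 2. Pyy, an early marker of all islet lineages, was at 10.2, 9.37 and 6.68, and Ghrl, which encodes ghrelin, at 2.26, 1.89 and 1.49; both were lowest in WT 3, as was Gcg, in a table where WT 3 was the lowest library for 45% of present genes, WT 2 for 34.2% and WT 1 for 20.9%. Of the 25 hormone and peptide genes 12 were present (48%, against 54.9% of all genes), and WT 1 was highest for 10 of those 12, against 30.2% of all present genes. The median coefficient of variation over the 12 was 20.6%. Peptides shared with gut and nerves included Cck at 9.41, 7.92 and 11.1, Cartpt at 9.41, 9.15 and 5.85 and the enkephalin precursor Penk at 15.04, 12.998 and 14.4. Ttr, a carrier of thyroid hormone and retinol-binding protein made in islet cells and liver, was at 44.9, 34.9 and 42.2.

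The machinery that processes and stores hormones was present for 20 of 26 genes (76.9%), with none variable. Pcsk1 and Pcsk2, the prohormone convertases of beta and alpha cells, were at 3.51, 2.8 and 2.81 for Pcsk1 and 4.34, 3.91 and 4.07 for Pcsk2. Cpe, which trims their products, was at 38.3, 33.2 and 26.2. The granins Chga and Chgb, the core proteins of secretory granules, were at 13.8, 11.2 and 12.4 for Chga and 182, 139.7 and 146 for Chgb. WT 1 was highest for these 5 genes, and for 13 of the 20 present genes of the list, against 30.2% of all present genes. Pam, which amidates peptides, was at 187, 163 and 156, Cltrn, a membrane protein of beta cells, at 65.1, 55.6 and 52.1, and Ptprn2, a granule membrane protein, at 33.1, 27.7 and 27.1. Genes of mature beta cell function were split: Slc2a2, the glucose transporter, was present at 21.5, 22.1 and 20.8, but Slc30a8, the zinc transporter of insulin granules, was below 1 at 0.356, 0.327 and 0.254.

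**Figure D2:**
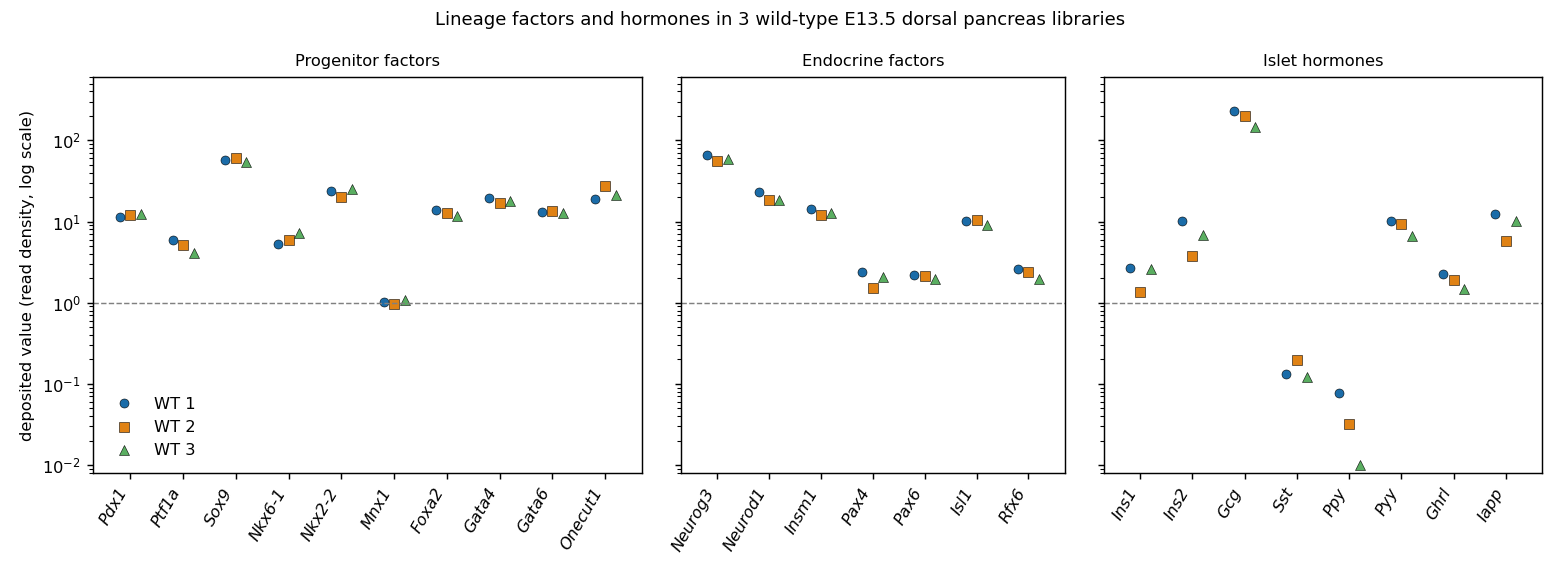
Deposited values (read density, log axis) of progenitor factors, endocrine factors and islet hormones in WT 1 (circles), WT 2 (squares) and WT 3 (triangles), with a dashed line at 1. Factors cluster tightly among libraries, Sst and Ppy lie below 1 in all 3, and Ins2 spreads from 3.72 to 10.1.

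Apart from the 5 sex-linked genes, the digestive enzymes were the list whose genes varied most among the 3 libraries, and they varied together. The median coefficient of variation over the present enzymes was 55.1%, against 8.44% over all present genes. Of 25 enzymes and zymogens 10 were present (40%), 13 reached 1 in at least 1 library, and 9 of those 13 were variable, against 1.4% of all genes that reached 1. The 3 that reached 1 without being present, Try10, Prss1 and 2210010C04Rik, did so in WT 1 alone. All 9 variable enzymes were highest in WT 1, which for Try10 follows from how it entered the count. Several of the 9 are near copies that can share reads, so they are not separate instances. All 10 present enzymes were highest in WT 1, against 30.2% of all present genes. This depends on which genes the list holds. The carboxypeptidase gene Cpa1 was counted with the acinar genes, and at 240.3, 193 and 273 it was highest in WT 3. The lists were chosen with earlier results of these data known. The median deviation over the 10 present enzymes was 0.74 in WT 1, -0.40 in WT 2 and -0.41 in WT 3 on the log2(value + 1) scale. Without WT 1 none of the 25 was variable; without WT 2 or without WT 3 the count was 8. The pattern thus rests on WT 1.

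Several of these genes lie on different chromosomes, and the bases upstream of their starts are shown for 4 variable enzymes and for Cpa1, an early tip gene that did not follow the pattern. The stretches hold the 250 bases before the annotated start, from RefSeq on build GRCm38.p6, read 5′ to 3′ on the gene's strand. Capitals mark the E-box CANNTG, which bHLH factors such as Ptf1a can bind and which reads the same pattern on both strands, the sequence TGGGAA on either strand (TTCCCA on the other), the core that Rbpj and Rbpjl recognise, and TATAAA on the gene's strand only; overlapping matches are marked together.
Prss2 (chr6:41521526-41521775, plus strand): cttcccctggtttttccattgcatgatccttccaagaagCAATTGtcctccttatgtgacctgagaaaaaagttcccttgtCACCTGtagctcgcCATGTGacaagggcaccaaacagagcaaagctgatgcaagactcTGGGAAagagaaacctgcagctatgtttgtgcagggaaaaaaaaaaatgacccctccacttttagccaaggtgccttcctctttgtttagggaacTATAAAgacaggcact
Cela1 (chr15:100687921-100688170, minus strand): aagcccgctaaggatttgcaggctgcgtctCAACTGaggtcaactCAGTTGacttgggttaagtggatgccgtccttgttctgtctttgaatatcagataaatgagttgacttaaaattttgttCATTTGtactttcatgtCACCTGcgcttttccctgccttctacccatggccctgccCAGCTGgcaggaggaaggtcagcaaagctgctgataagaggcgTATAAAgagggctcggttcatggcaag
Amy2a5 (chr3:113258700-113258949, minus strand): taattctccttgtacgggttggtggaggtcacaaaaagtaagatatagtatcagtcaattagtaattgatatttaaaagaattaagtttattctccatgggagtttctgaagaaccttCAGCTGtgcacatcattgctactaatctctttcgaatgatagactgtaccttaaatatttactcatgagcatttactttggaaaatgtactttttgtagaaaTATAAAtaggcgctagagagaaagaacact
Pnliprp1 (chr19:58728637-58728886, plus strand): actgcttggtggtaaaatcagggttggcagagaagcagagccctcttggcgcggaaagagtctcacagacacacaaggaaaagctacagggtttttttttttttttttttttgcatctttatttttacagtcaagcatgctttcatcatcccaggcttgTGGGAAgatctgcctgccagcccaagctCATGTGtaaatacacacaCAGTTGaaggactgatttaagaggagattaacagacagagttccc
Cpa1 (chr6:30638968-30639217, plus strand): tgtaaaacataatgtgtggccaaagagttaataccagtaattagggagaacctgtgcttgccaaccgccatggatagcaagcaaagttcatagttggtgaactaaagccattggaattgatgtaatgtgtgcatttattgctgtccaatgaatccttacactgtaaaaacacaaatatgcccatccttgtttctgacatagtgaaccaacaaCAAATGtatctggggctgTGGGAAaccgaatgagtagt

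Upstream stretches were found for 8 of the 10 present enzymes, and all 8 held an E-box, 4 held TGGGAA and 5 held TATAAA. Of all 21 listed enzymes with such stretches, present or not, 18 held an E-box, 13 held TGGGAA and 10 held TATAAA. Among all 32851 stretches of the same length in the table, 66.2% held an E-box, 21.6% held TGGGAA on either strand and 7.59% held TATAAA. Enzymes were counted by gene and these percentages by stretch, so the enzyme counts cannot be set directly against them. Prss2 had an E-box, TGGGAA and TATAAA, Cela1 and Amy2a5 had E-boxes and TATAAA without TGGGAA, and Pnliprp1 and Cpa1 had an E-box and TGGGAA without TATAAA. These matches describe the letters and say nothing of which sites are bound.

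The trypsinogens Prss2 and Try10 showed the widest spread of the 25 enzymes, with ranges of 2.15 and 1.66 on the log2(value + 1) scale. The family was not uniform. Try4 and Try5, at 1.22 and 1.2, spread less than Amy2a5 at 1.57 and Pnliprp1 at 1.55. Prss1 and Prss3, at 0.66 and 0.426, were not variable. Prss2, an anionic trypsinogen, was at 25.7, 6.87 and 5.02. The values correspond to about 3222, 655 and 671 reads over its 815 bases, so the excess in WT 1 does not rest on a handful of reads. Try10, another trypsinogen, was at 3.41, 0.45 and 0.397 and passed 1 in WT 1 alone. Try4 was at 5.86, 1.98 and 1.94 and Try5 at 7.36, 2.64 and 2.65, with WT 2 and WT 3 almost equal in each. These trypsinogens belong to a family of near copies in a cluster, so reads may be split between them and the separate values are uncertain.

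Some amylases and lipase genes were variable as well. Amy2a5, a pancreatic amylase, was at 9.93, 2.71 and 2.68, and Amy2b at 9.5, 2.9 and 6.35, where WT 3 lay between the others. Amy2b is labelled an unprocessed pseudogene in the annotation used here, and it is counted among the present and the variable enzymes. The amylase genes are near copies of each other too. Pnliprp1, a lipase-related protein, was at 187, 90.8 and 63.2, and Clps, the colipase that anchors pancreatic lipase to fat, at 137, 67.9 and 65.1. Pnlip, the pancreatic lipase itself, was below 1 at 0.0826, 0.0518 and 0.0369. Cela1, an elastase, was at 25.2, 16.02 and 11.003, whereas the elastases Cela2a, Cela3a and Cela3b were below 1 in every library.

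Present enzymes that were not called variable kept WT 1 as the highest library. Ctrb1, chymotrypsinogen, was at 90.2, 46.8 and 84.4, so WT 3 came close to WT 1. Cel, the bile-salt-activated lipase, was at 39.01, 21.5 and 24.2. Enzymes of the mature acinar cell were mostly below 1: Cpb1, a carboxypeptidase, was at 0.415, 0.16 and 0.256, Ctrl at 0.0377, 0.0276 and 0.01 and Ctrc at 0.0213, 0.0457 and 0.0763, the last of these with WT 3 highest.

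**Figure D3:**
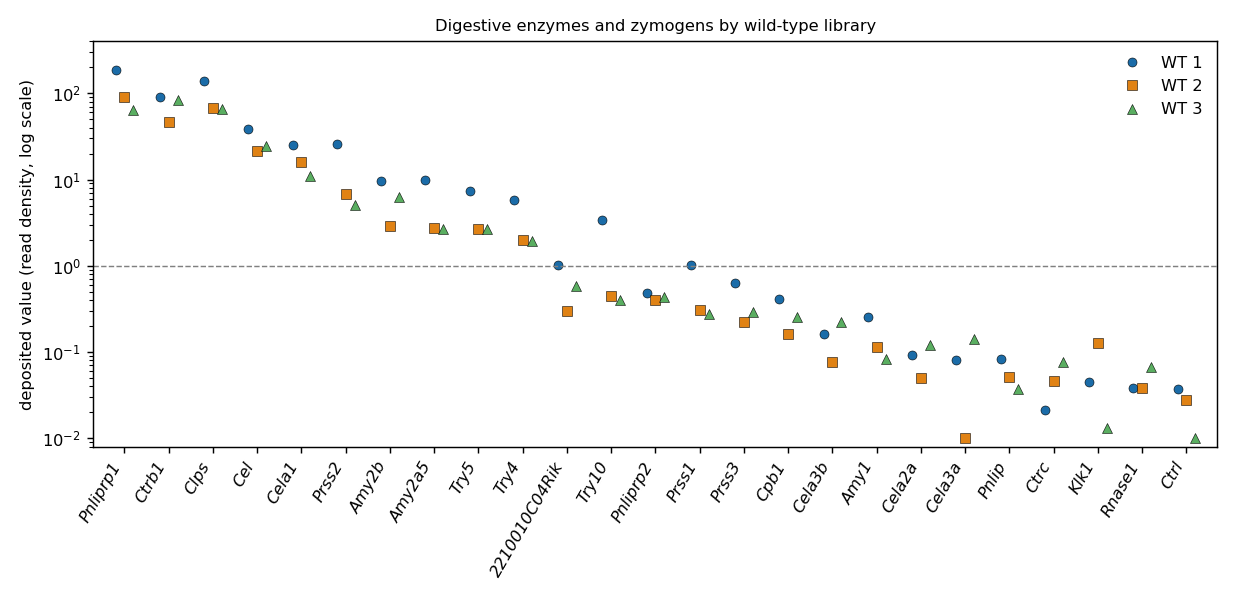
Deposited values (read density, log axis) of 25 digestive enzymes and zymogens, ordered by median, in WT 1 (circles), WT 2 (squares) and WT 3 (triangles), with a dashed line at 1. For the 10 enzymes at 1 or more in all 3 libraries WT 1 is the highest, for example Prss2 at 25.7 against 6.87 and 5.02.

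The acinar and tip genes other than enzymes did not share that spread as a list. Of 21 genes 13 were present (61.9%, against 54.9% of all genes), and 1 of the 14 that reached 1 was variable. That gene was Spink1, the trypsin inhibitor of acinar cells, at 9.67, 4.71 and 3.3, with WT 1 highest as for the enzymes, and its call was lost without WT 1 or without WT 3. Cpa1, the carboxypeptidase that marks tip progenitors, was at 240.3, 193 and 273 with WT 3 highest. WT 1 was highest for 7 of the 13 present genes, against 30.2% of all present genes. Ptf1a and Rbpjl, given above, were both highest in WT 1, by less than 2-fold. Bhlha15 (Mist1), which builds the secretory apparatus, was at 10.4, 7.43 and 8.55, Nr5a2, a nuclear receptor of acinar cells, at 23.2, 25.9 and 20.9, and Xbp1, the factor of the unfolded protein response, at 184, 163 and 165. Creb3l1, another factor of the secretory pathway, was at 9.07, 8.04 and 9.74. Of the 4 markers of acinar or tip cells (Cpa1, Ctrb1, Cel and Ptf1a), all present, WT 1 was highest for Ctrb1, Cel and Ptf1a and WT 3 for Cpa1.

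Genes of the trunk and duct were present in 26 of 32 cases (81.2%), with 1 variable. Bicc1, the RNA-binding protein that the study deletes, was at 19.7, 19.5 and 18.2 in the wild type, and its libraries differed by less than 10%. Spp1, osteopontin of duct cells, was at 1054, 1211 and 1140.3. Krt19, found in duct and mesothelial cells, had values of 3.22, 2.41 and 5.47, with WT 3 highest, and Muc1, a mucin of the apical surface, at 11.9, 10.3 and 11.7. Car2, a carbonic anhydrase of ducts, was at 2.11, 1.85 and 3.24. Cftr, the chloride channel of the mature duct, was below 1 at 0.548, 0.184 and 0.278. Genes mutated in polycystic kidney disease were present, with Pkd1 at 13.3, 20.3 and 15.3, Pkd2 at 10.7, 11.6 and 9.53 and Pkhd1 at 2.19, 2.98 and 1.8. Glis3, a duct and beta cell factor, was at 37.95, 36.98 and 33.6, and Ambp, a secreted glycoprotein, at 40.02, 34.5 and 41.7.

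Genes of the epithelium at large had a median coefficient of variation of 13.4%, against 8.44% over all present genes. Epcam was at 60.7, 52.4 and 56.5 and Cdh1, E-cadherin, at 119, 112 and 115. The embryonic claudin Cldn6 was at 139.7, 113 and 125. Krt8 was at 29.9, 23.1 and 42.96 and Krt18, its partner in simple epithelium, at 37.9, 26.6 and 37.7. Cldn3, a tight junction protein, was the 1 variable gene of 27, at 6.71, 4.57 and 13.4, with WT 3 highest, and its call was lost without WT 2 or without WT 3. Over the 27 present genes WT 2 was the lowest library in 21, against 34.2% of all present genes. Spint1 and Spint2, inhibitors of membrane proteases, were at 48.9, 41.3 and 41.6 for Spint1 and 41.3, 33.2 and 52.7 for Spint2, Ocln, a tight junction protein, at 35.2, 31.5 and 30.01, and the integrin subunit Itga6 at 27.4, 28.7 and 25.4.

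Notch signalling passes between neighbouring cells through membrane-bound ligands and holds progenitors back from the endocrine fate. Of 25 Notch genes 20 were present (80%), none variable. Of the ligands, Dll1, made by endocrine and tip progenitors, was at 3.95, 4.3 and 4.18 and Jag1 at 14.5, 14.9 and 13.8, while Jag2 was below 1 at 0.148, 0.138 and 0.236. Dlk1, an atypical ligand, was at 161, 158 and 194. Notch1 was at 6.07, 6.35 and 7.52 and Notch2 at 15.8, 18.4 and 15.4, and Notch4, the endothelial receptor, was below 1. The target Hes1, a repressor of Neurog3, was at 19.2, 19.1 and 19.1, with almost equal values in the 3 libraries. Hey1, another target, was at 6.17, 6.14 and 5.81. Hes5 and Hes7 were below 1. Mib1, the ligase that activates ligands, was at 40.7, 41.4 and 33.5, Hes6 at 32.7, 27.6 and 35.8 and the coactivator Maml1 at 27.2, 27.9 and 26.9.

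In the FGF pathway mesenchymal ligands act on the epithelial receptor Fgfr2 and promote growth of progenitors. Ligands were present in 6 of 18 cases (33.3%, against 54.9% of all genes), receptors in 6 of 7, and inhibitors and targets in 9 of 9. Fgf10, the mesenchymal ligand that the bud depends on, was at 0.911, 1.48 and 1.11, short of 1 in WT 1, and Fgf7, its relative, was below 1 at 0.141, 0.0917 and 0.0968. Fgf9, a ligand of mesenchymal FGF receptors, was at 3.45, 3.54 and 3.34. Fgfr2, the epithelial receptor, was at 1008, 925 and 928 and Fgfr1, the mesenchymal receptor, at 11.8, 11.7 and 15.3. Feedback targets of the pathway were present in every library: Spry2 was at 8.04, 8.6 and 7.82 and the ETS factor Etv5 at 18.3, 15.99 and 15.6. The inhibitors Spred1, Dusp6 and Spry1 were at 33.6, 35.2 and 31.7 for Spred1, 21.6, 21.96 and 19.7 for Dusp6 and 15.9, 14.2 and 16.9 for Spry1, and the decoy receptor Fgfrl1 was at 13.03, 12.3 and 15.7. Fgf21 and Fgf23 were at the floor.

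Hedgehog ligands are kept out of the early pancreatic endoderm, while the surrounding gut makes them. All 3 ligands were below 1: Shh was at 0.0133, 0.0133 and 0.01, Ihh at 0.0601, 0.0348 and 0.01 and Dhh at 0.211, 0.269 and 0.286. Shh was thus near the floor in each library. Receptors and inhibitors were present in 8 of 9 cases. Ptch1, the receptor that is also a target of the pathway, was at 3.94, 4.66 and 4.22 and Hhip, a ligand trap, at 1.03, 1.31 and 1.02. Gli1, the direct target, was below 1 at 0.14, 0.0967 and 0.175, and Gli2 and Gli3 were present. The co-receptors Gas1 and Cdon were at 91.3, 97.7 and 95.6 for Gas1 and 36.5, 39.6 and 31.3 for Cdon, the signal transducer Smo at 35.2, 31.8 and 34.7 and its brake Sufu at 8.94, 9.69 and 10.7.

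Wnt ligands were present in 6 of 15 cases (40%, against 54.9% of all genes), receptors in 15 of 19, and inhibitors and targets in 13 of 21. Wnt5a, a mesenchymal ligand of the non-canonical branch, was at 15.05, 16.9 and 15.2, Wnt2b at 5.15, 6.08 and 5.15 and Wnt4 at 1.46, 1.21 and 1.49. Of the receptors, Fzd2 was at 14.5, 14.4 and 17.4, Fzd7 at 30.7, 33.1 and 29.8, and the co-receptors Lrp6 and Ryk at 17.1, 19.4 and 16.6 for Lrp6 and 15.5, 16.3 and 17.6 for Ryk. Lgr5, a stem cell receptor for R-spondins, was below 1 at 0.266, 0.23 and 0.187. Axin2, a target of canonical signalling, was at 4.43, 5.04 and 5.11, and Tcf7, a nuclear effector, at 58.3, 54.7 and 62.1. The secreted inhibitor Sfrp1 was at 82.4, 101 and 82.98, and Sfrp4 was at the floor.

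Signals of the BMP and TGF-beta family pattern the gut tube and limit endocrine differentiation. In this family 9 of 24 ligands, 10 of 13 receptors and 11 of 18 inhibitors and targets were present. The share was 37.5% for the ligands and 54.5% for the whole list, against 54.9% of all genes. Bmp4 was at 2.03, 2.25 and 2.94 and Tgfb2 at 5.51, 7.03 and 5.23. Gdf11, which limits the number of Neurog3 cells, was at 11.8, 12.1 and 10.7. The receptors Bmpr1a and Tgfbr2 were at 39.3, 42.4 and 37.5 for Bmpr1a and 10.5, 11.4 and 10.6 for Tgfbr2, with Tgfbr1 at 45.7, 52.005 and 41.98 and the activin receptor Acvr2a at 17.2, 17.2 and 14.7. Of the extracellular inhibitors, Fst, follistatin, was below 1 at 0.146, 0.121 and 0.196, and Grem1 was below 1 at 0.385, 0.674 and 0.597, whereas Fstl1 was at 93.5, 99.997 and 87.9 and Twsg1 at 47.5, 49.2 and 44.9. Amh was at the floor.

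Retinoic acid, made in the mesenchyme, is needed for the dorsal bud. Of 21 genes 16 were present (76.2%), none variable. Aldh1a2, the enzyme that makes retinoic acid in mesenchyme and mesothelium, was at 7.5, 7.07 and 7.91, and Rdh10, which acts in the step before, at 30.5, 33.6 and 27.8. The receptors Rara and Rarb were at 2.64, 3.01 and 3.68 for Rara and 6.41, 6.1 and 5.56 for Rarb, and their partners Rxra and Rxrb at 14.7, 15.8 and 20.5 for Rxra and 11.96, 11.8 and 14.2 for Rxrb. Rbp4, the retinol carrier, was at 24.2, 21.003 and 18.6, and Dhrs3, which returns retinal to retinol, at 10.5, 9.31 and 9.93. Cyp26a1, which breaks retinoic acid down, was below 1 at 0.0332, 0.0232 and 0.0176. WT 3 was highest for 11 of the 16 present genes, against 34.9% of all present genes, and for 8 of the 9 present receptors and binding proteins.

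Other growth factors and their receptors were mostly present, with 34 of 46 ligands and 40 of 49 receptors. Igf2, the fetal insulin-like growth factor, was at 3810.3, 3729.8 and 3996, and its receptor Igf1r at 4.84, 6.06 and 4.87. Vegfa, which draws in vessels, was at 8.76, 8.28 and 8.7, with its receptor Kdr at 9.67, 10.4 and 9.58. Cxcl12, a mesenchymal chemokine, was at 52.1, 53.2 and 46.6, and its receptor Cxcr4 at 10.6, 8.62 and 9.94. Pdgfa, made by epithelium, was at 5.85, 5.28 and 5.39, and the mesenchymal receptor Pdgfra at 26.2, 29.2 and 24.1. Ligand and receptor of these 4 pairs were therefore all present. Mdk, a heparin-binding growth factor, was at 98.7, 100.2 and 108, Igf1 at 58.3, 69.2 and 49.1, the insulin receptor Insr at 46.6, 50.5 and 39.995 and the ephrin receptor Ephb4 at 45.8, 45.5 and 51.7. Glp1r, the receptor for glucagon-like peptide, was below 1 at 0.01, 0.01 and 0.0125, and Ereg was at the floor.

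Mesenchymal transcription factors were present in 32 of 50 cases (64%, against 54.9% of all genes), with none variable. Nkx3-2 (Bapx1), a factor of splanchnic mesenchyme and spleen, was at 0.817, 0.656 and 1.47, and only WT 3 passed 1. Barx1, which marks stomach mesenchyme, was at 1.44, 1.18 and 2.7, again with WT 3 highest. Tlx1, a factor of the spleen primordium that forms beside the dorsal pancreas, was at 2.53, 2.07 and 2.71. Foxf1, a Hedgehog target in gut mesenchyme, was below 1 at 0.329, 0.409 and 0.352. Prrx1, a homeobox factor of loose mesenchyme, was at 151, 175 and 142 and Snai2 at 28.1, 30.9 and 26.97. Meis2 was at 30.5, 30.5 and 27.5 and the forkhead factor Foxp1 at 234, 261 and 222. WT 2 was highest for 21 of the 32 present genes, against 34.9% of all present genes.

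Hox genes mark position along the body axis, with low-numbered paralog groups active towards the head and high-numbered groups towards the tail. Present genes followed the paralog number: 10 of 14 genes of groups 1 to 5, 4 of 8 of groups 6 to 8, and 0 of 11 of groups 9 to 13. Hoxa4 was at 6.37, 6.72 and 6.35, Hoxa5 at 15.5, 16.7 and 15.3 and Hoxb5 at 4.43, 4.96 and 5.41. Hoxb6 was at 1.98, 1.89 and 1.819, and Hoxc8 was below 1 at 0.0786, 0.1 and 0.129. Hoxd10 was also below 1, at 0.01, 0.04 and 0.0182. Hoxa3 was at 53.1, 67.9 and 55.9, Hoxa2 at 4.47, 4.67 and 4.29, Hoxb2 at 5.34, 6.003 and 5.52 and Hoxd8 at 4.03, 3.6 and 3.18. Of groups 9 to 13, 9 genes were below 1 in all 3 libraries. The others passed 1 in part of the libraries: Hoxa9 was at 0.684, 2.11 and 0.59, past 1 in WT 2 alone, and Hoxd11 at 0.735, 1.2 and 1.33. Reads on some Hox genes may come from overlapping antisense transcripts, since the library kit does not mark strand.

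**Figure D4:**
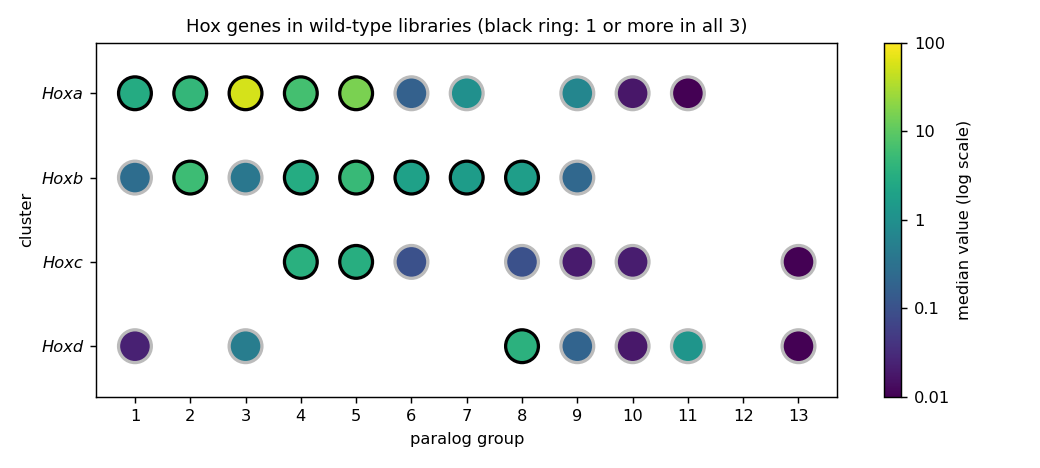
Hox genes by paralog group (horizontal axis) and cluster (vertical axis), coloured by the median of the 3 wild-type libraries (deposited value, log colour scale), with a black ring where the value was 1 or more in all 3 and a grey ring elsewhere. Black rings are found in 10 of 14 genes of groups 1 to 5 and in none of the 11 genes of groups 9 to 13.

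Extracellular matrix genes were present in 70 of 82 cases (85.4%), with none variable. Among the fibrillar collagens of mesenchyme, Col1a1 was at 96.96, 92.5 and 107, Col1a2 at 59.8, 59.1 and 56.8 and Col3a1 at 147, 148 and 136. The basement membrane under the epithelium was represented by Col4a1 at 22.6, 20.6 and 23.9 and Lama1, a laminin chain of the embryo, at 2.43, 2.85 and 2.95. Col4a3 and Col4a4, chains of mature kidney and lung membranes, were below 1. Fn1, fibronectin, was at 22.1, 22.9 and 19.9, Vim, the intermediate filament of mesenchyme, at 232, 226 and 256, Postn, periostin, at 10.2, 9.2 and 10.5 and Dcn, decorin, at 71.2, 71.2 and 56.2. WT 3 was lowest for Dcn and Fn1 but highest for Vim and Postn. Sparc, a matrix glycoprotein, was at 263, 249 and 253, the protease inhibitor Timp2 at 188, 188 and 189 and the protease Adamts1 at 111, 116 and 102. Mmp11 was at 329.7, 325 and 365, a value read over 73 of 2778 annotated bases or a multiple of 73.

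Pericyte and smooth muscle genes were present in 14 of 20 cases (70%), and WT 3 was highest for 10 of the 14, against 34.9% of all present genes. Acta2, smooth muscle actin, was at 4.74, 5.04 and 7.98, and Pdgfrb, the pericyte receptor, at 23.02, 23.5 and 27.3. Cspg4 (NG2) was at 1.17, 1.22 and 1.85. Myh11, the myosin of mature smooth muscle, was below 1 at 0.278, 0.269 and 0.414. Rgs5, a pericyte gene, was at 31.9, 35.7 and 26.1, Myl9 at 25.6, 25.6 and 34.6, Mcam at 16.2, 13.8 and 16.2 and the potassium channel Kcnj8 at 15.3, 15.4 and 17.8. Mesothelial genes were present in 13 of 14 cases. Wt1, which marks mesothelium, was at 13.2, 15.4 and 13.48 and the uroplakin Upk3b at 9.52, 8.29 and 11.3, but Msln, mesothelin, lay near the floor at 0.0116, 0.0161 and 0.0114. Podxl, a surface sialomucin, was at 35.4, 41.2 and 39.2, Cav1, the caveolar coat protein of several cell types, at 148, 146 and 139.6, and Alcam at 19.3, 19.8 and 14.5.

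Endothelial genes were present in 23 of 26 cases (88.5%), none variable. Pecam1 was at 35.7, 34.9 and 36.8, Cdh5, VE-cadherin, at 17.4, 18.1 and 17.8, and Tek, the angiopoietin receptor, at 5.85, 6.65 and 6.18. The receptor Aplnr was at 29, 32.5 and 31.5, values with 2 decimals at most that do not show over how many of its 3699 annotated bases they were averaged, the ETS factor Fli1 at 22.6, 25.4 and 20.6 and endoglin, Eng, at 13.53, 11.8 and 16.2. Prox1, which is made in lymphatic endothelium and in pancreatic progenitors alike, was at 15.8, 19.4 and 14.4.

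Neural crest, glia and neuron genes were present in 17 of 28 cases (60.7%, against 54.9% of all genes). Sox10, the factor of migrating crest and glia, was at 2.32, 2.13 and 2.39, and neuronal tubulin Tubb3 at 4.48, 4.84 and 5.93. Gap43, a protein of growing axons, was at 68.1, 77.3 and 75.2, Ednrb, the endothelin receptor of the crest, at 24.6, 28.5 and 25.6, Hand2 at 22.05, 23.99 and 24.1 and Stmn2 at 12.9, 17.3 and 11.8. Enzymes of transmitter synthesis lay low: Th and Dbh were below 1, and Chat was at the floor.

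Leukocyte genes were present in 19 of 34 cases (55.9%), close to the 54.9% of all genes. Of the 22 that reached 1, 4 were variable, against 1.4% of all genes that reached 1. The macrophage receptor Csf1r was at 6.91, 7.38 and 8.59, the lysosomal protein Cd68 at 1.84, 2.03 and 2.85 and lysozyme, Lyz2, at 16.2, 12.9 and 15.2. Ptprc (CD45), carried by all leukocytes, was below 1 at 0.739, 0.771 and 0.734. The 4 variable genes encode neutrophil granule and cytosol proteins and were highest in WT 3, as were 79.3% of all variable genes. S100a8 was at 3.86, 6.58 and 14.1 and S100a9, its partner in calprotectin, at 6.75, 10.7 and 21.8. Ngp was at 1.34, 2.81 and 5.14 and the cathelicidin Camp at 0.434, 0.494 and 2.12. Without WT 3 none of the 34 genes was variable, and without WT 1 only 1 was. The value of S100a8 rests on 98 of 694 annotated bases or a multiple of 98. Laptm5 was at 8.85, 10.2 and 12.8, the mannose receptor Mrc1 at 8.51, 10.9 and 9.13, and Cd34, of endothelium and blood progenitors, at 53.9, 50.9 and 49.96.

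Red cell genes also leaned to WT 3. Of 16 genes 10 were present (62.5%, against 54.9% of all genes). Of the 11 that reached 1, 3 were variable, against 1.4% of all genes that reached 1. All 3 had WT 3 highest and WT 2 lowest, and 79.3% of all variable genes were highest in WT 3. Hba-a1 was at 392, 287 and 656 and Hba-a2, a near copy that can share its reads, at 533, 377 and 955, both alpha globins. Hba-x, the embryonic alpha-like globin, was at 39.8, 36.6 and 90.1. Without WT 3 no red cell gene was variable, and without WT 2 only 1 was. The embryonic beta-like globins Hbb-y and Hbb-bh1 were at 647, 562 and 904 for Hbb-y and 21.4, 13.98 and 20.1 for Hbb-bh1. Alas2, the red cell enzyme of haem synthesis, was at 6.45, 4.99 and 8.04 and the transferrin receptor Tfrc at 41.8, 42.96 and 37.9. The part of red cell transcripts in other differences between WT 3 and the rest was not tested.

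Genes of neighbouring organs were largely below 1. Of 20 liver genes 8 were present (40%). Alb, albumin, was below 1 at 0.374, 0.42 and 0.546 and Apoa1 mixed at 0.46, 0.386 and 1.06, while Afp, alpha-fetoprotein, was present at 7.09, 7.44 and 7.73. Trf, transferrin, was at 71.1, 77.8 and 73.8, and Cps1, of the urea cycle, was at the floor. Serpina1a and Serpina1b, near copies that encode antitrypsins, were variable with WT 2 highest, at 20.03, 34.8 and 15.9 for Serpina1a and 21.4, 36.8 and 16.97 for Serpina1b. Apoa2 was variable at 0.842, 0.161 and 1.47, which corresponds to about 70, 10 and 130 reads over its 537 bases. None of these 3 calls was kept without WT 2 or without WT 3. For stomach, Sox2 was mixed at 1.2, 1.08 and 0.779 and Gkn1 was at the floor. Cdx2, the factor of intestine, was below 1 at 0.0501, 0.039 and 0.0167. Osr1, a mesenchymal factor counted in the stomach and intestine list, was at 7.62, 8.96 and 8.18, and Vil1, of the brush border, was below 1 at 0.822, 0.747 and 0.879. The proton pump subunit Atp4a was below 1 at 0.565, 0.447 and 0.505, as was Krt20 at 0.394, 0.274 and 0.299.

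The spleen primordium, which adjoins the dorsal pancreas, was represented by 8 of 10 genes. Besides Tlx1, these were mostly factors shared with pancreatic mesenchyme: Tcf21 was at 15.5, 17.9 and 15.5, Nr2f2 at 46.6, 53.5 and 44.9 and Nkx2-3 at 8.8, 9.08 and 10.1. Nkx2-5, which marks the spleen primordium, was below 1 at 0.0313, 0.0501 and 0.131. No gene of lung, kidney, gonad or muscle was present out of 25. Nkx2-1, of lung and thyroid, was at 0.013, 0.0196 and 0.013 and Myod1, of skeletal muscle, at 0.069, 0.0901 and 0.132. Lhx1 was the 1 gene of that list that passed 1 in any library, at 1.14, 0.922 and 0.98, and Star, of steroid synthesis, stayed below 1 at 0.875, 0.933 and 0.969. Nphs1, of the kidney filter, was at 0.768, 0.434 and 0.59 and cardiac actin Actc1 at 0.373, 0.488 and 0.943.

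Proliferation genes were read in all 3 libraries, 25 of 27 present (92.6%) and none variable. Mki67 was at 44.8, 51.8 and 28.4, with WT 3 lowest, Ccnb1, the mitotic cyclin, at 48.1, 43.5 and 44.7 and Pcna, the clamp of replication, at 142, 131 and 135. Top2a was at 418, 419 and 374, Cdk4 at 159, 145 and 191, Ccnd2 at 72.9, 73.7 and 68.4, and the brake Cdkn1c at 264, 264 and 267. The tumour suppressor genes Cdkn2a and Cdkn2b were below 1. Of genes that respond to handling, Fos was below 1 at 0.195, 0.275 and 0.293, Jun was at 26.5, 26.3 and 29.1 and Egr1 at 6.23, 5.93 and 5.95. The heat shock gene Hspa1a was below 1 at 0.76, 0.57 and 0.72. Hspb1, a small heat shock protein, was the 1 variable gene of that list, at 4.13, 3.09 and 8.49, and its call was lost without WT 2 or without WT 3. The chaperones Hspa8 and Hspa5 were at 3247, 3230.5 and 2873 for Hspa8 and 478, 459 and 423 for Hspa5, and the glycolytic genes Pgk1 and Ldha at 131, 118 and 119.9 for Pgk1 and 117, 93.2 and 120.3 for Ldha.

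Genes of the sex chromosomes differed among the libraries. Xist, transcribed from the inactive X chromosome of female cells, was at 1.28, 0.01 and 3.79, so it was listed at the floor in WT 2 and was highest in WT 3. The Y-linked genes ran the other way: Ddx3y was at 8.82, 11.1 and 3.31, Eif2s3y at 6.67, 8.6 and 2.78, Kdm5d at 3.16, 4.56 and 1.26 and Uty at 4.7, 7.37 and 2.05. All 5 were variable, against 3 without WT 2 and 1 without WT 3. WT 1 and WT 3 thus held both Xist and Y-linked transcripts, and WT 2 held Y-linked transcripts with Xist at 0.01. The part of the sex of the embryos in other differences among the libraries was not tested. Housekeeping genes were all present, none was variable, and their median coefficient of variation was 6.71%: Actb was at 679.95, 643 and 871, Gapdh at 72.7, 57.9 and 86.3, Hprt at 42.7, 38.5 and 37.8 and the elongation factor Eef1a1 at 7751, 7468 and 7805. Tubulin Tuba1b was at 459, 433 and 541, the adaptor Ywhaz at 369, 360.4 and 334, and the ribosomal proteins Rplp0 and Rpl13a at 308, 290.3 and 422 for Rplp0 and 7993, 6845 and 9477 for Rpl13a.

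The lists leaned to different libraries. Median deviations of WT 1 on the log2(value + 1) scale were 0.74 for digestive enzymes, 0.20 for islet hormones, 0.13 for granule genes, 0.11 for acinar factors and 0.083 for endocrine factors. They were -0.11 for pericyte and smooth muscle genes, -0.099 for leukocyte genes and -0.078 for mesothelial genes. WT 2 was highest in the median for mesenchyme factors (0.074), spleen genes (0.073) and neural genes (0.073), and WT 3 for red cell genes (0.27), pericyte and smooth muscle genes (0.18), leukocyte genes (0.16) and retinoic acid genes (0.14). General epithelium had medians of 0.050, -0.11 and 0.067, duct and trunk genes 0.0091, -0.057 and 0.0051, progenitor factors -0.0014, 0.014 and -0.040, and extracellular matrix -0.029, 0.0044 and 0.033. The lists overlap in part. These medians were not corrected for the GC content or length of the genes, with which the deviations moved as given below. The part of GC content and length in the leanings was not tested. Over all present genes the medians were 0.0051, 0.00014 and -0.021.

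**Figure D5:**
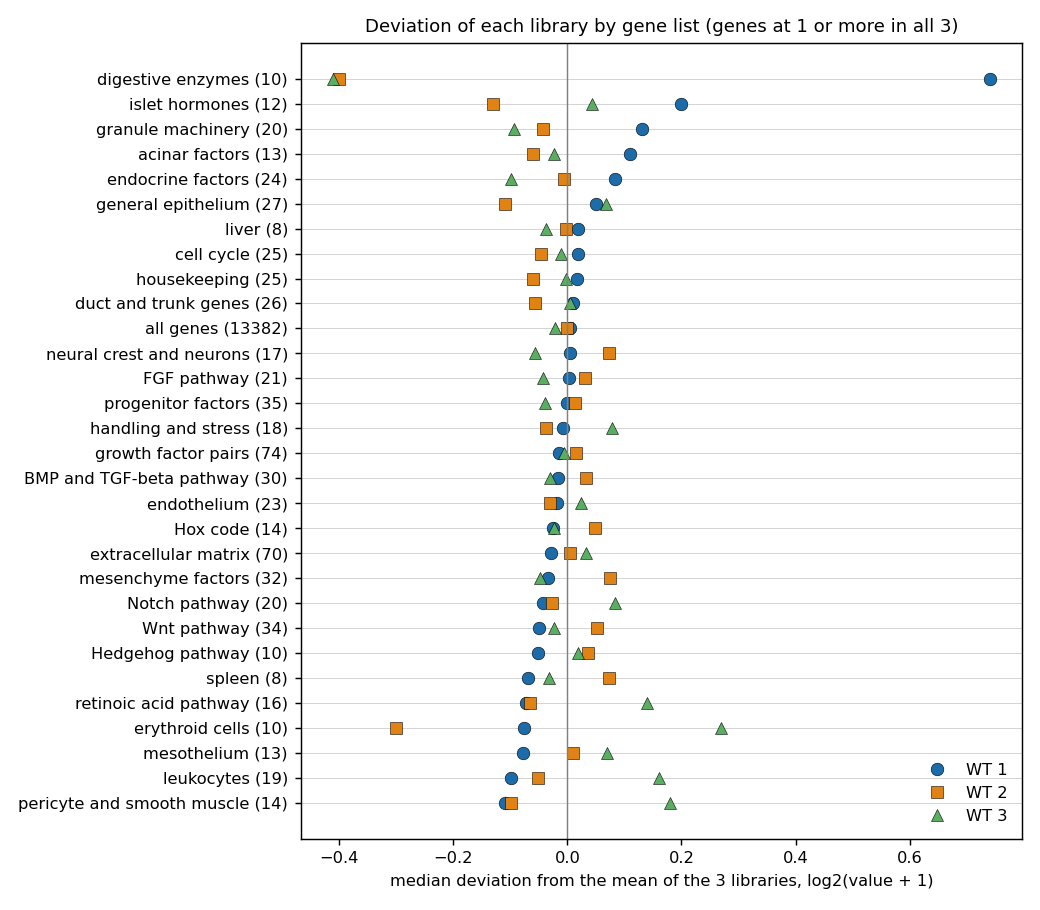
Median deviation of WT 1 (circles), WT 2 (squares) and WT 3 (triangles) from the mean of the 3 libraries, on the log2(value + 1) scale, for each list with at least 5 genes at 1 or more in all 3 (number of such genes in brackets). Digestive enzymes lie apart, with WT 1 at 0.74 and WT 2 and WT 3 near -0.4.

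The base composition of genes moved with the libraries. Across 12889 present genes the Spearman correlation of a library's deviation with the GC content of the gene was -0.40 in WT 1, -0.50 in WT 2 and 0.65 in WT 3. With annotated length it was -0.13, 0.44 and -0.28. Genes are not independent, and these values describe the libraries. Of the 198 variable genes 157 were highest in WT 3 (79.3%), 23 in WT 1 (11.6%) and 18 in WT 2 (9.09%). After correction for GC content, over the genes that have one, 128 genes were variable, among them 9 digestive enzymes, so the enzyme count was as large with the correction. Of the 198 variable genes, 16 had no annotation and so no GC content, and the 128 leaves them out.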

How the data were processed

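RNA from snap-frozen E13.5 dorsal pancreata was purified on columns, and 500 ng went into each TruSeq RNA v2 library, per the labels' protocols. The submitters' processing notes name CASAVA 1.82, Bowtie 0.12.7 and build mm9. Details of annotation, counting and normalization were not given in the sources used here. Values as deposited are a signal per Ensembl gene whose unit the file headers do not name. Steps between the values of genes of 60 to 150 bases with a single exon gave whole reads, within 0.15 read, for 98.1% (WT 1), 100% (WT 2) and 100% (WT 3) of values. Values were used unscaled. Symbols were found for 22624 of 24389 identifiers (92.8%), and 46 of 970 listed symbols had no match and are not analysed here. A GRCm38 annotation gave names, lengths and GC content. The counts need no test, since 1 group has no comparison. The calls were tested on simulated data. Alternatives changed thresholds, pseudocount, scaling, filter, GC content (loess, span 0.3) and libraries. Each list's core genes, the 4 others with the highest median, up to 4 variable genes and genes at the floor were named, except some genes not reported here, and over the whole table the 15 widest and 15 highest. A few other genes were named after their values were seen. Members and lists were chosen with earlier results of these data known. Python 3.11.15 with pandas 2.3.3 was used.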

Additional observations from a re-analysis of the deposited data

How the results depend on the processing

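The counts are descriptions with no test. A threshold of 5 left 8372 present genes and 385 present list genes, and a floor of 0.1 or less held 4802 genes. With a 1.5-fold threshold 924 genes and 68 list genes were variable, and with a 3-fold threshold 41 genes, 4 list genes and 2 enzymes. A pseudocount of 0.1 gave 414 variable genes, and the GC correction gave 128 over the genes that have a GC content. With protein-coding genes only, chosen after seeing the data, 214 genes were at the floor and 95 were variable, among them 8 digestive enzymes. Leaving out 1 library in turn gave 13476 to 13501 present genes, 619 to 624 present list genes, 755 to 885 genes at the floor, 27 to 159 variable genes, 10 to 17 variable list genes and 0 to 8 variable enzymes. Another scaling (median ratios, totals, upper quartiles) and leaving out genes read over under 100 bases kept each count within 1.5 times. Of the 162 core genes, 161 (all but Hes1) kept their mean within 1 SD when scaled by median ratios. The cause of these shifts was not tested. No paired analysis was possible because a single group was described. Low values rest on few reads, and WT 2 was the shallowest.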

Other observations

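The genes with the widest spread over the whole table were mostly processed pseudogenes, and most were highest in WT 3. Of the 15 named genes with the largest range, 13 were pseudogenes, and the others were Xist and Prss2. Gm15745 was at 0.11, 0.22 and 15.7, Rps2-ps13 at 8.38, 0.998 and 13.54 and Gm7079 at 5.92, 4.08 and 31.96. Gm14303 was at 32.04, 29.1 and 149, Gm10059 at 2.12, 1.001 and 8.92 and Gm8199 at 3.08, 1.9 and 13.1, all highest in WT 3. The same held for Rpl36-ps3, Gm7722, Gm13611, Gm10169, Gm5121, Rpl36-ps12 and Gm3756. Such copies share sequence with their parent genes, so their separate values are uncertain. By kind, 82 of 1552 pseudogenes that reached 1 were variable (5.28%, 73 of them highest in WT 3), as were 13 of 101 ribosomal protein genes (12.9%, 12 of them highest in WT 3) and 82 of 11644 other protein-coding genes (0.704%).

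The 15 genes with the highest medians mix mitochondrial, imprinted and translation genes with genes read over few bases. H19, an imprinted fetal RNA, was at 16573, 14733 and 15859.7, and the mitochondrial genes mt-Co3, mt-Atp6, mt-Co2, mt-Co1 and mt-Atp8 had medians between 6165 and 8357. Eef1a1, Rpl13a, Rpl32 and Rps3, of translation, were among them, with Rpl13a read over 39 and Rpl32 over 25 bases or a multiple. The others were Rcc1 at 8582, 7965 and 8272, read over 9 of 3848 annotated bases or a multiple of 9, Wdr77 at 8179.5, 7893 and 7463, over 28 of 4841, Rae1 at 7305, 7879 and 7204, over 3 of 2554, Wac at 6673, 6907 and 5661, over 43 of 5919, and Sfpq at 5986, 5849 and 5420.5, over 82 of 4743. Of the 10 with several exons, 7 were read over lengths under 100 bases.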
